A study of Arabidopsis thaliana with 18 samples.

Results

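JRG21 and AT2G38240 are jasmonic acid oxidase genes of Arabidopsis thaliana, and each is read by 1 probe set of the array. They were chosen by their names from genes already known, in these data, to be far higher with OPDA than in control and than with PPA1, so those comparisons are given as descriptions with no test. They are 2 of the 22746 probe sets that are not array controls, and both were among the 21869 probe sets that passed the filter on low values, an intensity of at least 16 on at least 3 arrays. RNA was measured on 18 single-colour Affymetrix arrays, in 6 groups of 3 replicates that the labels call independent. The groups were the mutant tga2-5-6 (by its name affected in TGA2, TGA5 and TGA6, genes of the TGA family of bZIP transcription factors) treated for 4 h with 75 µM phytoprostane A1 (PPA1), with 75 µM oxo-phytodienoic acid (OPDA) or with 0.5% methanol in water (control), and the accession Col-0 under the same PPA1, OPDA and control treatments. Growth conditions, plant age and the organ sampled are not given in the labels, and the labels do not describe the mutant alleles. No probe set used here is named for TGA2, TGA5 or TGA6, so the genotype labels were not checked through them. The labelled material, plant material with no organ named, was checked with 2 marker lists: 1 of 10 shoot markers and 3 of 10 root markers had a probe set of 1 gene, and both kinds were present. RCA, the Rubisco activase of green tissue, averaged 15235 to 20409 over the groups, and PYK10, a root beta-glucosidase, averaged 14882 to 20490.4.

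Jasmonates are fatty-acid-derived hormones of wound and defence responses. OPDA is made in plastids and is turned into jasmonic acid in peroxisomes, and jasmonic acid is joined to isoleucine to give the form that the receptor COI1 binds with JAZ repressors. Jasmonic acid oxidases are 2-oxoglutarate-dependent, iron-containing dioxygenases that hydroxylate free jasmonic acid, which takes it away from that conjugation, and the genes for them are known to be switched on by jasmonate itself. Phytoprostanes such as PPA1 share the cyclopentenone ring of OPDA and form without enzymes when fatty acids are oxidised by radicals. TGA factors are known from salicylic acid signalling and from responses to reactive electrophiles, and the study asked, by its title, which genes respond to PPA1 and OPDA through them.

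JRG21 ("jasmonate-regulated gene 21" in the RefSeq annotation of assembly TAIR10.1) was read at intensities of 133, 159 and 4.48 in replicates 1, 2 and 3 of tga2-5-6 treated with PPA1, at 4451, 3792 and 4762 in tga2-5-6 treated with OPDA and at 2.33, 107 and 4.56 in tga2-5-6 control. In Col-0 the same probe set gave 29.3, 3.92 and 47.8 with PPA1, 3878, 3479.9 and 5001 with OPDA and 0.812, 14.6 and 28.1 in control. The 6 OPDA arrays were all high and close together, and the 12 other arrays were all low and scattered. Every OPDA array lay above every other array, with 3479.9 to 5001 on the OPDA arrays against 0.812 to 159 on the rest. Of those 12 arrays, 6 were below 16, a range where an intensity on this array carries little signal, so the low end of JRG21 is poorly resolved. In such bulk samples, fewer cells of a type and less RNA per cell cannot be told apart.

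AT2G38240, which the files name by locus only, was read at 431, 368 and 61.2 in tga2-5-6 with PPA1, at 8442, 9970.4 and 8699 in tga2-5-6 with OPDA and at 65.4, 271 and 199 in tga2-5-6 control. In Col-0 it gave 49.2, 55.4 and 16.3 with PPA1, 7403, 8399.7 and 8883 with OPDA and 45.9, 123 and 97.0 in control. The same 6 arrays were again high and close together, from 7403 to 9970.4, and the others lay between 16.3 and 431. None of its 18 values was below 16, so its low end is better measured than that of JRG21.

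The replicates of the 2 genes were tight with OPDA and loose without it. For JRG21 the coefficient of variation within a group was 11.4% to 19.1% in the OPDA groups and 81.6% to 158% in the 4 other groups. For AT2G38240 it was 9.05% to 9.17% with OPDA and 44.2% to 69.0% without. The model used below pools the spread of all 6 groups, so the loose groups also widen the intervals of comparisons among OPDA arrays. In turn, the tight OPDA groups lower the pooled spread used for comparisons among the loose groups.

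**Figure D1:**
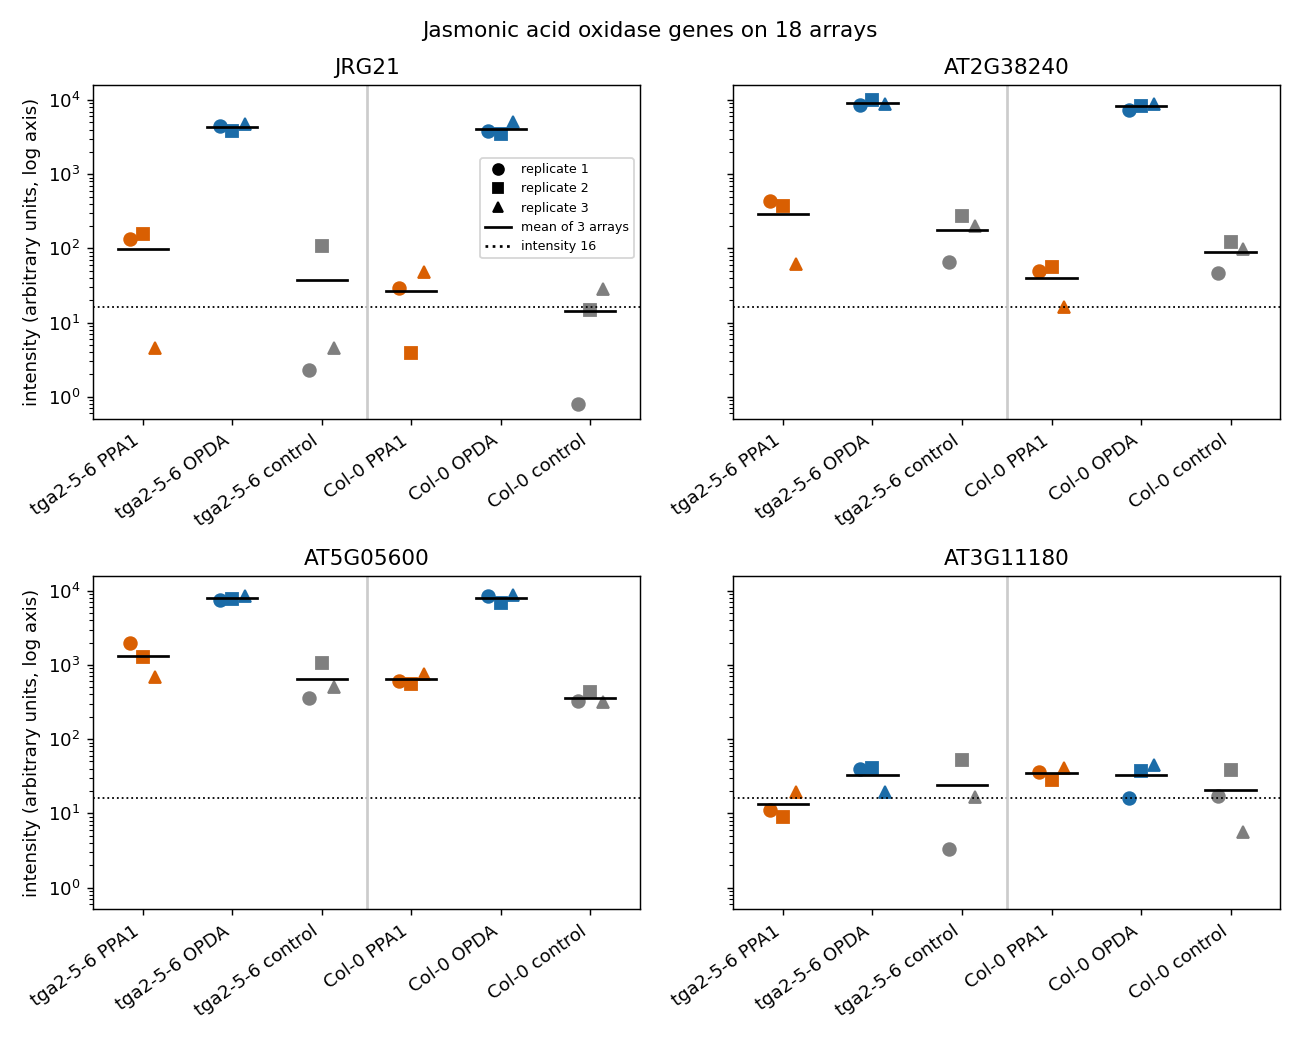
Intensity on a log axis of the 4 jasmonic acid oxidase probe sets in the 6 groups, with each array as a point and the group mean as a bar. The OPDA arrays of JRG21 (3479.9 to 5001), AT2G38240 (7403 to 9970.4) and AT5G05600 (6937 to 8684) stand above all other arrays, whereas those of AT3G11180 (16.1 to 44.9) do not.

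With OPDA, the mean of JRG21 was 4335 ± 495 in treated tga2-5-6 against 38.0 ± 59.8 in its control, and 4120 ± 789 in treated Col-0 against 14.5 ± 13.7 in its control (SD, n = 3 each). The ratio of the means was 114 in tga2-5-6 and 284 in Col-0, and with values below 16 raised to 16 it was 93.5 and 205. The difference of the mean log2 values was 8.69 in tga2-5-6 and 9.10 in Col-0 (SE 1.65 each), and raising low values to 16 gave 7.16 and 7.72. The size of the JRG21 response thus depends on how its near-background control values are treated.

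AT2G38240 averaged 9037 ± 818 with OPDA against 178 ± 104 in control in tga2-5-6, a ratio of 50.7. In Col-0 it averaged 8229 ± 755 with OPDA against 88.6 ± 39.2 in control, a ratio of 92.8. Its log2 differences were 5.89 in tga2-5-6 and 6.65 in Col-0 (SE 0.72 each), and raising low values to 16 left both unchanged. The OPDA and control arrays of both genes did not overlap in either genotype, which by itself was true, in the higher direction, of 10.1% of all probe sets in tga2-5-6 and 9.94% in Col-0. As these contrasts were used to choose the genes, nothing is read from that.

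Set directly against OPDA, at matched dose and time, the arrays with PPA1 were low for both genes. The log2 difference, PPA1 minus OPDA, was -6.57 in tga2-5-6 and -7.85 in Col-0 for JRG21, and -5.40 in tga2-5-6 and -7.86 in Col-0 for AT2G38240. The PPA1 and OPDA arrays of both genes did not overlap in either genotype, as was so, in the lower direction, for 10.3% of all probe sets in tga2-5-6 and 8.50% in Col-0. The comparisons of PPA1 and of OPDA with control share the control arrays, and those of PPA1 with OPDA share arrays with both.

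By group mean, JRG21 ran from 4335 in tga2-5-6 with OPDA through 4120 in Col-0 with OPDA, 98.6 in tga2-5-6 with PPA1, 38.0 in tga2-5-6 control and 27.0 in Col-0 with PPA1 to 14.5 in Col-0 control. AT2G38240 ran in the same order at the top, with 9037, 8229, 287 and 178, and then stood at 88.6 in Col-0 control and 40.3 in Col-0 with PPA1. For both genes, each pair of neighbours in this order had overlapping arrays, except the step between Col-0 with OPDA and tga2-5-6 with PPA1. The low end of the JRG21 order depended on the measure. By mean log2 value, Col-0 with PPA1 (4.14) stood above tga2-5-6 control (3.38), whose 3 arrays had 1 at 107 and a median of 4.56.

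The PPA1 and control values of the 2 genes were both in view when the genes were chosen, so the comparison of PPA1 with control is also given as a description, with no test. For JRG21 the log2 difference of PPA1 against control was 2.13 ± 1.65 in tga2-5-6 (95% interval of the model -1.42 to 5.67) and 1.25 ± 1.65 in Col-0 (-2.30 to 4.79). For AT2G38240 it was 0.49 ± 0.72 in tga2-5-6 (-1.05 to 2.03) and -1.21 ± 0.72 in Col-0 (-2.75 to 0.33). PPA1 and control arrays overlapped for both genes in both genotypes, and the intervals for JRG21 are wide enough to hold a change of many-fold. Single arrays moved these values: without 1 array at a time, JRG21 ran between 1.04 and 3.81 in tga2-5-6 and between -0.20 and 2.33 in Col-0. Over all 21869 probe sets, 2.71% passed with PPA1 in tga2-5-6 and 2.50% in Col-0, where passing, or a call, means a Benjamini-Hochberg adjusted p under 0.05 in limma, in a group-means fit to all 18 arrays, and a change of at least 2-fold.

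Between genotypes the log2 differences of the 2 genes were near 0 with OPDA and larger, though not past the test, without it. For JRG21 in control the sign turned on single arrays, with -1.19 to 1.57 without 1 array at a time. These comparisons within a treatment were not the contrasts used to choose the genes and were tested. The values they compare were in view at that choice, so their p-values may not be independent of it. With OPDA, tga2-5-6 minus Col-0 was 0.08 for JRG21 (interval -3.46 to 3.63, adjusted p 0.9924 in limma) and 0.14 for AT2G38240 (-1.41 to 1.68, adjusted p 0.9697), in a comparison where 0.787% of probe sets passed. In control it was 0.49 for JRG21 (-3.05 to 4.03, adjusted p 0.9373 in limma) and 0.89 for AT2G38240 (-0.65 to 2.44, adjusted p 0.6655), and 0.535% of probe sets passed. With PPA1, JRG21 differed by 1.37 (-2.17 to 4.91, adjusted p 0.7989 in limma), and by 0.28 to 3.04 without 1 array at a time. Of the 6 tests on the 2 genes in limma, 0 passed and 1, described next, had an unadjusted p under 0.05.

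AT2G38240 with PPA1 had 431, 368 and 61.2 in tga2-5-6 and 49.2, 55.4 and 16.3 in Col-0. All 3 mutant arrays were above all 3 Col-0 arrays, the one at 61.2 only just, and non-overlap in this direction was found for 8.78% of all probe sets. The log2 difference was 2.59 ± 0.72 (interval 1.05 to 4.14), or 6.03-fold, with p 0.002976 before and adjusted p 0.096 after adjustment in limma, so it did not pass, where 1.57% of probe sets did. On the log2 scale the SD was 1.56 in tga2-5-6 with PPA1 and 0.97 in Col-0 with PPA1. It was 0.13 in each OPDA group, and these tight groups also enter the pooled spread behind this interval and p. The call turned in 2 of 15 alternatives. Adjusted p was 0.04251 in limma when the filter was raised to an intensity of 100. It was 0.0117, with a difference of 3.49, without replicate 3 of tga2-5-6 with PPA1. In the 13 other alternatives the difference did not pass, with adjusted p up to 0.3919 in limma.

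Over all 3 treatments together, each with its own genotype difference, AT2G38240 was 1.21 log2 units higher in tga2-5-6 and JRG21 0.65 higher. This test too used values in view when the genes were chosen. An exact two-sided permutation test of genotype within treatments, with 8000 arrangements and a smallest possible p of 0.00025, gave p 0.02875 for AT2G38240 and 0.499 for JRG21, or 0.0575 and 0.499 adjusted over both genes. Without the OPDA arrays the differences were 1.74 (exact permutation p 0.035) and 0.93 (p 0.52), a setting added after the values were seen. Of 24 alternatives for AT2G38240, 21 did not pass, with exact permutation adjusted p up to 0.1345.

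The genotype difference of each response, tga2-5-6 minus Col-0, is built from the same contrasts and is given in the same way. For the OPDA response it was -0.40 ± 2.33 for JRG21 (interval -5.42 to 4.61), of whose 6 control values 4 were below 16, and -0.76 ± 1.01 for AT2G38240 (-2.94 to 1.42). For the PPA1 response it was 0.88 ± 2.33 for JRG21 (-4.13 to 5.89) and 1.70 ± 1.01 for AT2G38240 (-0.48 to 3.88). Each of these intervals spans both no difference and a several-fold one. Over all probe sets, 0.00915% passed for the PPA1 response, and 0 of 21869 for the OPDA response in limma, although 1419 had an unadjusted p under 0.05 there.

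**Figure D2:**
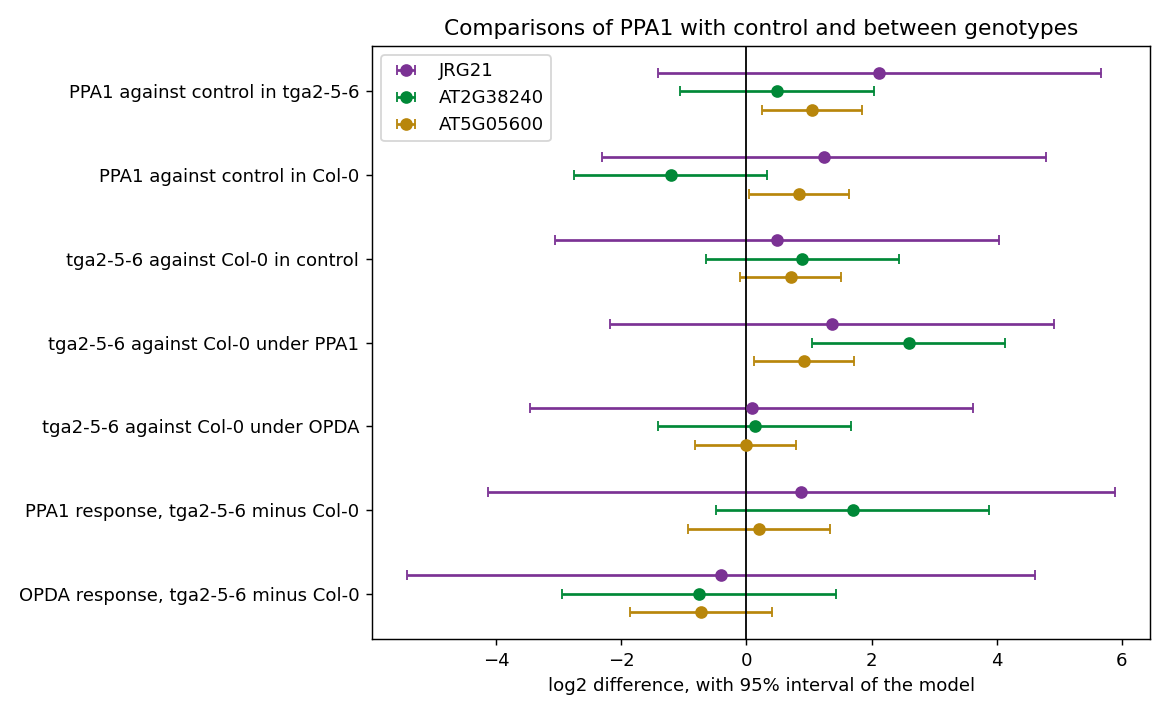
Log2 differences with 95% intervals for JRG21, AT2G38240 and AT5G05600 in the comparisons of PPA1 with control, of the genotypes within each treatment, and of the responses between genotypes. All intervals of JRG21 span 0, that of AT2G38240 under PPA1 (1.05 to 4.14) does not, and none of the 6 tests within treatments on JRG21 and AT2G38240 passed after adjustment; their other rows are descriptions.

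The other genes of the oxidase list were AT5G05600 and AT3G11180. AT5G05600 was read at 1950, 1279 and 684 in tga2-5-6 with PPA1, at 7469, 7821 and 8511 in tga2-5-6 with OPDA and at 363, 1055 and 504 in tga2-5-6 control. In Col-0 it gave 608, 561 and 744 with PPA1, 8483, 6937 and 8684 with OPDA and 325, 427 and 319 in control. Its OPDA arrays too stood above all others, but its level without OPDA was well above background.

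AT5G05600 rose with OPDA, by 3.78 ± 0.37 log2 units in tga2-5-6 (adjusted p 6.475e-05 in limma) and by 4.50 ± 0.37 in Col-0 (adjusted p 3.161e-05). It was lower with PPA1 than with OPDA, by -2.73 in tga2-5-6 (adjusted p 0.0006505 in limma) and -3.66 in Col-0 (adjusted p 6.219e-05). With PPA1 it differed from control by 1.05 in tga2-5-6 (adjusted p 0.1332 in limma) and 0.84 in Col-0 (adjusted p 0.2946), and did not pass. In tga2-5-6 that value passed without control replicate 2 (1.48, adjusted p 0.02793 in limma) and without PPA1 replicate 3 (1.45, adjusted p 0.04946). Between genotypes it differed by 0.71 in control (adjusted p 0.4804 in limma), 0.92 with PPA1 (adjusted p 0.3098) and -0.01 with OPDA (adjusted p 0.9939). The genotype difference of its OPDA response was -0.72 ± 0.53 (interval -1.85 to 0.41, adjusted p 0.8494 in limma).

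AT3G11180 stayed low throughout. It averaged 13.3 ± 5.61 with PPA1, 33.0 ± 11.8 with OPDA and 24.3 ± 25.5 in control in tga2-5-6, and 34.9 ± 6.20, 32.9 ± 14.98 and 20.6 ± 16.8 in Col-0 (SD, n = 3 each). Its OPDA difference was 1.13 ± 0.86 in tga2-5-6 (interval -0.71 to 2.97, adjusted p 0.4452 in limma) and 0.95 ± 0.86 in Col-0 (-0.90 to 2.79, adjusted p 0.5895), and the groups overlapped. With PPA1 it differed by -0.19 in tga2-5-6 (adjusted p 0.9324 in limma) and 1.15 in Col-0 (adjusted p 0.5832). Under PPA1 it was lower in tga2-5-6 than in Col-0, at 9.03 to 19.6 against 28.3 to 40.5, without overlap, as were 9.39% of all probe sets in this direction. That difference of -1.46 ± 0.86 (interval -3.30 to 0.38, adjusted p 0.5305 in limma) did not pass and has the opposite sign to those of JRG21, AT2G38240 and AT5G05600. In control the genotypes differed by -0.12 (adjusted p 0.9729 in limma), which turned to 0.13 with low values raised to 16, and with OPDA by 0.058 (adjusted p 0.9894).

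Across arrays, JRG21 and AT2G38240 had a Pearson r of 0.92 and a Spearman rho of 0.84 over 18 arrays, a value set largely by the gap between OPDA and the rest. Over the 12 arrays without OPDA r was 0.50 and rho 0.55, and over the deviations of all 18 arrays from their group means r was 0.62 and rho 0.57. JRG21 and AT5G05600 had r 0.96, 0.76 and 0.80 in those 3 sets, and AT2G38240 and AT5G05600 0.95, 0.56 and 0.67. These are descriptions, and each pair of genes was read on the same arrays. Replicates 1 and 2 of tga2-5-6 with PPA1 and replicate 2 of tga2-5-6 control were the 3 highest arrays without OPDA for all 3 genes. With AT3G11180, r over 18 arrays was 0.38 for JRG21 and 0.27 for AT2G38240.

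**Figure D3:**
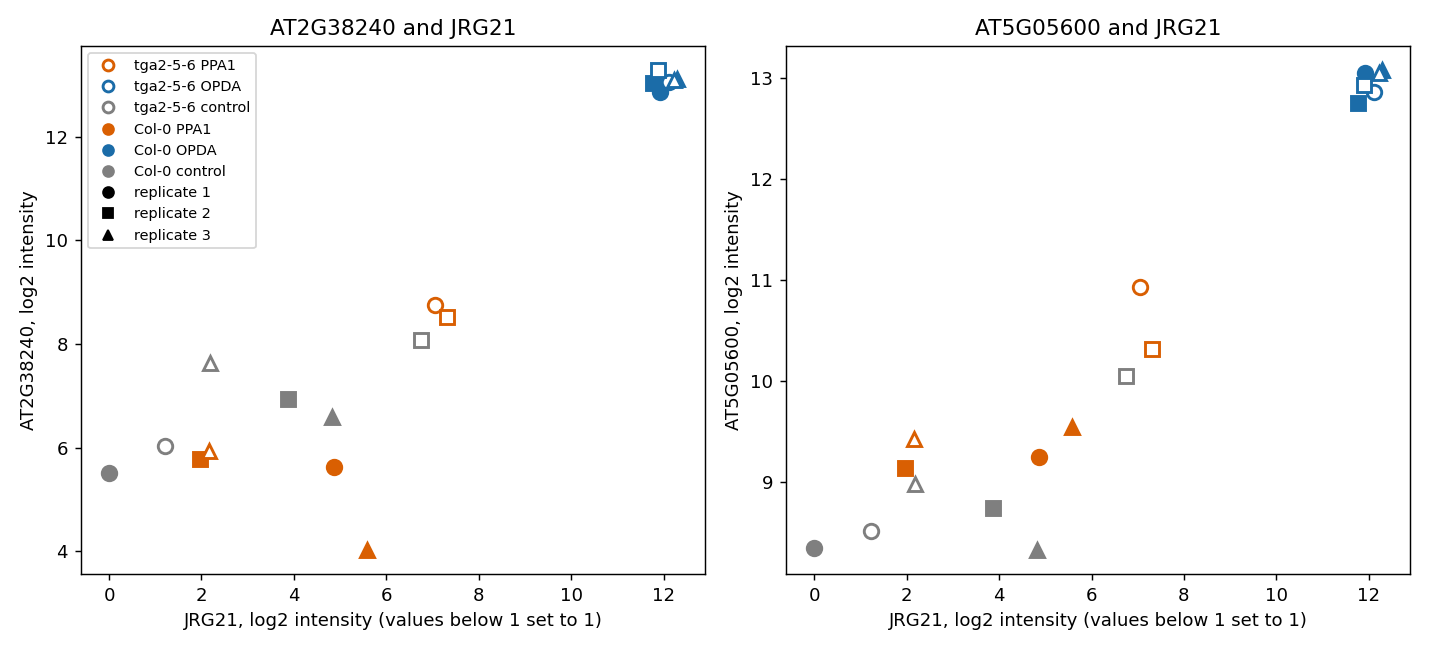
Log2 intensity of AT2G38240 (left) and AT5G05600 (right) against that of JRG21 on the 18 arrays, with colour for treatment, open symbols for tga2-5-6, filled symbols for Col-0 and shape for the replicate number. The OPDA arrays form a separate cluster at the top right, and among the rest the same 3 tga2-5-6 arrays are highest on both axes.

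The genes whose pattern was most like that of each oxidase were named by the highest r over the 18 arrays among probe sets of 1 gene. A peak with OPDA was thus built into their choice. For JRG21 these were AT3G23550 (r 0.96), AT5G05600 (0.96), AT4G24350 (0.95), AT3G23570 (0.94) and AT3G52870 (0.94). AT3G23550, whose r stayed at 0.89 over the 12 arrays without OPDA, averaged 892 ± 764, 3434 ± 197 and 368 ± 492 in tga2-5-6 with PPA1, with OPDA and in control, and 417 ± 209, 3980 ± 1949 and 261 ± 234 in Col-0 (SD, n = 3 each). AT3G23550 and AT3G23570 lie near each other, with 1 protein-coding gene between them in TAIR10.1. The r of the 4 others over the 12 arrays ran from 0.74 to 0.77.

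For AT2G38240 the most alike were AT5G19110 (r 0.98), AT2G34930 (0.97), AT4G29700 (0.97), AT5G02940 (0.97) and AT1G20490 (0.97), and over the 12 arrays without OPDA their r ran from 0.78 to 0.88. AT5G19110 averaged 339 ± 321, 5674 ± 1153 and 224 ± 117 in tga2-5-6 with PPA1, with OPDA and in control, and 75.4 ± 15.02, 4251 ± 613 and 149 ± 28.7 in Col-0 (SD, n = 3 each). Like AT2G38240, AT5G19110 was lower with PPA1 than in control in Col-0 by group mean and not in tga2-5-6. The rest of the list was lower with PPA1 by group mean in both genotypes. In tga2-5-6, PPA1 against control was 177 against 228 for AT2G34930 and 351 against 399 for AT4G29700. It was 593 against 629 for AT5G02940 and 68.2 against 79.8 for AT1G20490. The 2 lists share no gene: AT2G38240 ranked 13 in likeness to JRG21 and JRG21 ranked 50 in likeness to AT2G38240, of 12847 probe sets.

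**Figure D4:**
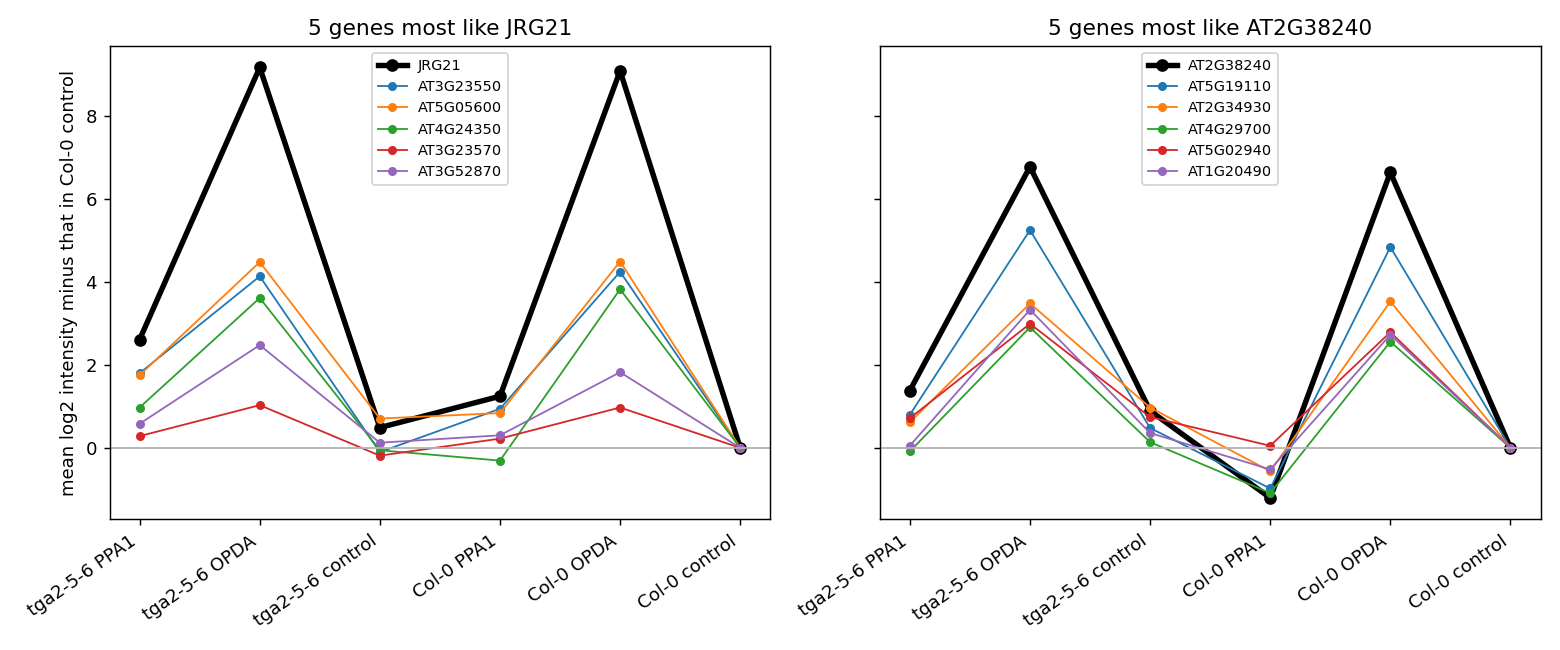
Mean log2 intensity in each group minus that in Col-0 control for JRG21 (left) and AT2G38240 (right), in black, and for the 5 genes most like each, in colour; the lines only guide the eye. All peak in the OPDA groups, which follows from how the oxidases and the genes like them were chosen. There the oxidases have the largest differences of each panel, in the contrast used to choose them.

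The measured genes beside the oxidases on the chromosome did not pass with OPDA. Of the 2 nearest genes on each side in TAIR10.1, AT3G55960 beside JRG21 and AT2G38250 beside AT2G38240 had a probe set of 1 gene. With OPDA, AT3G55960 differed from control by 0.14 in tga2-5-6 (adjusted p 0.7069 in limma) and 0.21 in Col-0 (adjusted p 0.5885). AT2G38250 differed by 0.29 in tga2-5-6 (adjusted p 0.7712 in limma) and 0.77 in Col-0 (adjusted p 0.4177).

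Around the oxidases, 5 lists of jasmonate genes held 81 other genes, of which 16 had a probe set of 1 gene. The lists were chosen with earlier results of these data known, so their counts are descriptions. With OPDA 6 of the 16 rose and 0 fell in tga2-5-6, where 3.40% of all probe sets rose and 3.06% fell, and 5 rose and 0 fell in Col-0, where 2.85% rose and 4.95% passed in either direction. The median log2 difference of the 16 was 0.92 in tga2-5-6 and 1.01 in Col-0, against -0.17 and -0.12 over all probe sets. With PPA1 0 of the 16 passed in tga2-5-6, where 1.43% of all probe sets rose and 1.28% fell, and 1 rose in Col-0, where 1.64% rose. Their medians were 0.01 and -0.04, against -0.13 and -0.05 over all.

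Among genes for the inactivation and conjugation of jasmonates, UGT76E12, a UDP-glucosyltransferase, averaged 865 ± 228 with OPDA against 21.7 ± 9.15 in control in tga2-5-6, and 1206 ± 611 with OPDA against 12.9 ± 18.8 in control in Col-0 (SD, n = 3 each). It rose by 5.38 ± 1.00 in tga2-5-6 (adjusted p 0.003515 in limma) and 7.72 ± 1.00 in Col-0 (adjusted p 3.472e-04). Of its control values 1 of 3 in tga2-5-6 and 2 of 3 in Col-0 were below 16, and with low values raised to 16 the differences were 5.26 and 5.75, still past the test. It was also the 1 jasmonate gene that rose with PPA1, to 150 ± 71.0 in Col-0, a difference of 4.71 ± 1.00 (adjusted p 0.01757 in limma), against 1.12 ± 1.00 in tga2-5-6 (adjusted p 0.5832). The genotype difference of its PPA1 response, tga2-5-6 minus Col-0, was -3.60 ± 1.41 and did not pass (adjusted p 0.6043 in limma). The size of the Col-0 difference rests on those low control values: it was 2.74 with values raised to 16 and 2.61 with a pseudocount of 16 (adjusted p 0.01857 and 0.01205 in limma). The call was lost when only the 6 arrays compared were fitted (adjusted p 0.1821 in limma), and without control replicate 1 or 3 or PPA1 replicate 2 or 3 of Col-0.

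JMT, the methyltransferase that makes methyl jasmonate, averaged 634 ± 96.2 with OPDA against 44.6 ± 57.1 in control in tga2-5-6 and rose by 5.06 ± 1.32 (adjusted p 0.02404 in limma). In Col-0 it averaged 823 ± 92.3 with OPDA against 52.9 ± 20.3 in control, and its difference of 4.02 ± 1.32 did not pass (adjusted p 0.08235 in limma). The genotype difference of the JMT OPDA response, tga2-5-6 minus Col-0, was 1.05 ± 1.87 and did not pass (adjusted p 0.9434 in limma). With low values raised to 16 the JMT difference in tga2-5-6 was 4.24. The JMT call there was lost without control replicate 1 or 3 or any of the OPDA replicates, with adjusted p 0.05963 to 0.0984 in limma. UGT76E11, another UDP-glucosyltransferase, rose by 1.14 in tga2-5-6 (adjusted p 0.004241 in limma) and 1.07 in Col-0 (adjusted p 0.007517), and UGT76E1 and UGT76E2 did not pass in either genotype.

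Of 4 measured synthesis genes, OPCL1, a peroxisomal CoA ligase on the path between OPDA and jasmonic acid, rose by 1.75 in tga2-5-6 (adjusted p 9.701e-04 in limma) and 1.84 in Col-0 (adjusted p 8.140e-04). DGL, AT1G70480 and AIM1 did not pass. Of the listed genes, 4 of 22 for synthesis, 3 of 26 for signalling and 2 of 14 for response were measured. In the signalling list ORA47, MYC3 and MYC4, all transcription factors, did not pass, and its other genes had no probe set of 1 gene. In the response list THI2.1, a thionin, rose by 3.63 ± 0.95 in tga2-5-6 (adjusted p 0.02427 in limma) and 4.38 ± 0.95 in Col-0 (adjusted p 0.01099), whereas the defensin PDF1.2 had differences of 2.91 ± 1.61 and 2.13 ± 1.61 that did not pass. With low values raised to 16 the THI2.1 differences were 3.43 and 3.22. The THI2.1 call in tga2-5-6 was lost without control replicate 1 or 3 or OPDA replicate 1 or 3.

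Other 2-oxoglutarate-dependent dioxygenases were the nearest relatives by enzyme class. Of 35 listed, 15 had a probe set of 1 gene and 14 passed the filter. This list too was chosen with earlier results of these data known. With OPDA 3 of the 14 rose and 0 fell in tga2-5-6, where 3.40% of all probe sets rose, and 2 rose and 0 fell in Col-0, where 2.85% rose. Their median differences were 0.50 in tga2-5-6 and 0.67 in Col-0, against -0.17 and -0.12 over all probe sets. With PPA1 0 of the 14 passed in tga2-5-6, where 2.71% of all probe sets passed. In Col-0 2 rose and 1 fell, where 1.64% of all probe sets rose and 0.860% fell. Their medians were 0.03 in tga2-5-6 and 0.29 in Col-0, against -0.13 and -0.05 over all.

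AT1G14120 averaged 4765 ± 314 with OPDA against 534 ± 43.9 in control in tga2-5-6, and 6806 ± 773 with OPDA against 674 ± 78.2 in control in Col-0 (SD, n = 3 each). It rose by 3.16 ± 0.16 in tga2-5-6 (adjusted p 7.303e-07 in limma) and 3.34 ± 0.16 in Col-0 (adjusted p 3.559e-07), and with PPA1 it did not pass. AT1G14130, the next protein-coding gene, rose with OPDA by 1.84 ± 0.21 in tga2-5-6 (adjusted p 1.458e-04 in limma) and 2.13 ± 0.21 in Col-0 (adjusted p 5.666e-05). With PPA1 it rose in Col-0 by 1.87 ± 0.21 (adjusted p 1.632e-04 in limma), against -0.32 ± 0.21 in tga2-5-6 (adjusted p 0.4161). Of the rest, AT5G20550 rose with OPDA in tga2-5-6 by 1.18 (adjusted p 0.00285 in limma) and fell with PPA1 in Col-0 (-1.36, adjusted p 0.002478), and AT5G20400 rose with PPA1 in Col-0 by 1.01 (adjusted p 0.00226).

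**Figure D5:**
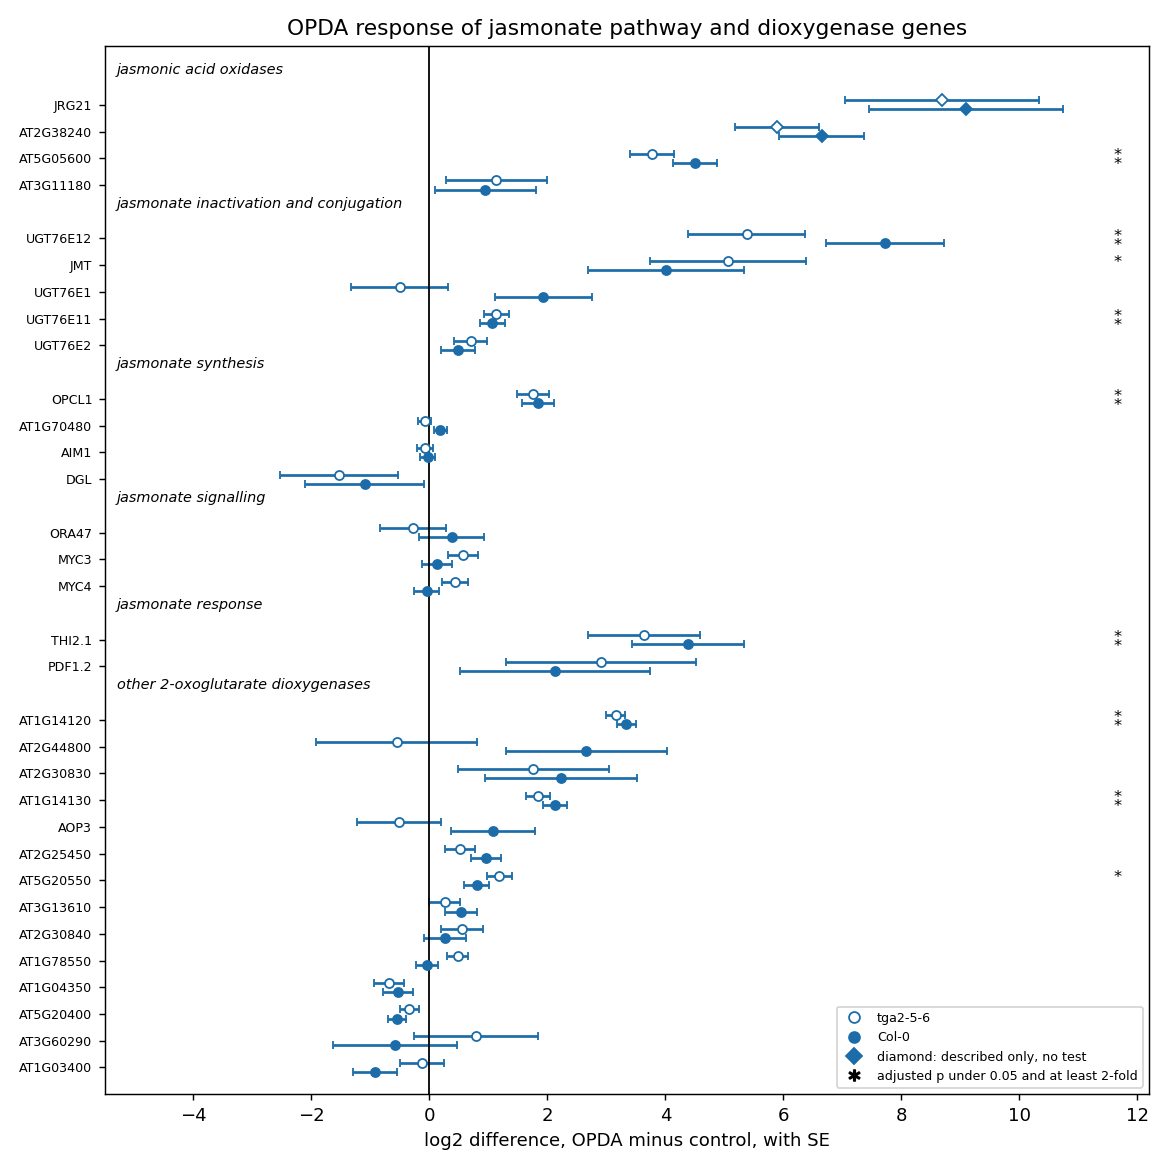
Log2 differences of OPDA against control, with SE, for the measured genes of the jasmonate and dioxygenase lists, with tga2-5-6 as open symbols above Col-0 as filled symbols. Asterisks mark genes that passed the test, and diamonds mark JRG21 (8.69 and 9.10) and AT2G38240 (5.89 and 6.65), which are described only.

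Some facts of the arrays moved with the treatments. The root marker EXPA18, an expansin of root hair cells, fell with OPDA and with PPA1 in both genotypes (by -2.32 in tga2-5-6 with OPDA, adjusted p 3.075e-04 in limma), EXPA7 fell with PPA1 in Col-0 (-2.57, adjusted p 0.01829), and PYK10 did not pass in either direction. Summed over the 3 root markers, intensities ran from 17310 to 21285 in tga2-5-6 with OPDA against 16604 to 19139 in its control, and from 20060 to 21723 in Col-0 with OPDA against 17269 to 20511 in its control. With PPA1 the sums ran from 12803 to 16355 in tga2-5-6, wholly below its control, and from 15388 to 18001 in Col-0. PYK10 makes up nearly all of each sum, so the sums do not show the lower expansins. The 1 shoot marker, RCA, ran from 13799 to 22684 over all arrays and did not pass with either compound. The actin 3'/5' ratio, which rises as RNA is degraded, averaged 48.3 ± 16.8 in tga2-5-6 control and 34.4 ± 11.7 in Col-0 control, and 28.1 to 30.4 in the treated groups (SD, n = 3 each). The GAPDH 3'/5' ratio did not follow it: in tga2-5-6 it averaged 0.953 ± 0.0721 with PPA1 and 1.46 ± 0.250 with OPDA against 1.55 ± 0.471 in control, and in Col-0 1.14 ± 0.394 with PPA1 and 1.47 ± 0.461 with OPDA against 1.26 ± 0.107 in control. The part of cell makeup or RNA quality in the oxidase values was not tested. Array medians ran from 159 to 184, and no arrays were identical.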

How the data were processed

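Values were taken as deposited: linear intensities, 1 per probe set and array, which the authors had scaled so that the 2% trimmed mean was the same on every array. The submitters' processing notes name GCRMA, but the intensities are not on the log2 scale GCRMA gives, and the algorithm behind them is not given in the sources used here. No further normalization was applied; values under 1 were raised to 1 before taking log2. The 64 array controls among the 22810 probe sets were dropped, and the filter of at least 16 on at least 3 arrays left 21869. Gene names come from the platform annotation, updated through RefSeq (TAIR10.1). It gave 1 gene for 13513 probe sets, several for 503 and none for 8730.

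Group means were estimated over the 18 arrays in limma 3.58.1 (R 4.3.3), which left 12 residual degrees of freedom, with Benjamini-Hochberg adjustment over the 21869 probe sets; it was first tested on simulated data. Tests are two-sided and intervals are not adjusted. The number of arrays limits the precision. Comparisons of PPA1 with control, and of responses between genotypes, were planned as tests on JRG21 and AT2G38240 but are given as descriptions, since the values behind them were in view when the genes were chosen. Genotype over treatments was tested by exact permutation.

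JRG21, AT2G38240 and all gene lists were chosen with earlier results of these data known. Named besides were, in each list, up to 4 genes per comparison that passed for either compound against control, by size, and for each oxidase the 5 probe sets of highest r. List genes that did not pass, and genes beside the oxidases, are named to complete their counts. Alternatives tried were the floor, a pseudocount, the filter, normalization between arrays, the arrays fitted, the moderation, the replicate number as a block and leaving out each array.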

Additional observations from a re-analysis of the deposited data

Results flagged for a closer look

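The PPA1 response of AT1G14130, a dioxygenase that is the next protein-coding gene after AT1G14120, differed between genotypes by an interaction test, with tga2-5-6 minus Col-0 at -2.20 ± 0.29 on the log2 scale (adjusted p 0.03626 in limma). Its mean was 205 ± 33.3 with PPA1 against 263 ± 78.2 in control in tga2-5-6, and 947 ± 105 with PPA1 against 261 ± 52.2 in control in Col-0 (SD, n = 3 each). The PPA1 and control arrays overlapped in tga2-5-6 and were apart in Col-0, from 835 to 1044 with PPA1 against 209 to 313 in control. Non-overlap in this direction in Col-0 was found for 9.66% of all probe sets. It was 1 of 2 probe sets that passed in this comparison. The value stayed between -2.42 and -1.98 under every alternative, but the call was lost with quantile normalization (adjusted p 0.06081 in limma), with only the 12 arrays compared (adjusted p 0.2106) and without any 1 of 8 arrays (adjusted p 0.05216 to 0.1671): Col-0 control 1 and 3, Col-0 PPA1 1, 2 and 3, tga2-5-6 control 3, and tga2-5-6 PPA1 1 and 3.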

How the results depend on the processing

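With no array left out, 2 of the results on JRG21 and AT2G38240 changed side: AT2G38240 in tga2-5-6 against Col-0 under PPA1, which passed with the filter at 100 (2.59, adjusted p 0.04251 in limma), and the genotype difference over the 3 treatments of AT2G38240 as sign changes within replicate numbers. When only the arrays compared were fitted, 3 jasmonate genes rose with OPDA in tga2-5-6, and with PPA1 in Col-0 0 jasmonate genes and 1 other dioxygenase rose; with a pseudocount of 16 that last count was also 1. In that fit of the arrays compared, the OPDA calls of OPCL1 and THI2.1 in Col-0 and of JMT, UGT76E11 and THI2.1 in tga2-5-6 were lost, with adjusted p 0.05147 to 0.1194 in limma. UGT76E11 with OPDA in Col-0 was under 2-fold without control replicate 1 or OPDA replicate 3, and AT5G20400 with PPA1 in Col-0 without control replicate 1 or 3 or PPA1 replicate 3. Quantile normalization turned AT3G11180 with PPA1 in tga2-5-6 to 0.30 and AT5G05600 in tga2-5-6 against Col-0 under OPDA to 0.034. AT3G11180 in tga2-5-6 against Col-0 in control turned to 0.13 with the floor at 16 and to 0.046 with the pseudocount.

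Leaving out 1 array at a time gave, for JRG21, 1.04 to 3.81 with PPA1 in tga2-5-6, -0.20 to 2.33 with PPA1 in Col-0, 0.28 to 3.04 between genotypes under PPA1, -1.19 to 1.57 between genotypes in control, -0.029 to 0.23 between genotypes under OPDA, -0.21 to 2.56 for the difference of the PPA1 response, -1.49 to 1.27 for that of the OPDA response and 0.087 to 1.205 for the genotype difference over the 3 treatments. For AT2G38240 it gave -0.12 to 1.39 with PPA1 in tga2-5-6, -1.63 to -0.65 with PPA1 in Col-0, 0.48 to 1.502 between genotypes in control, 2.03 to 3.49 under PPA1 and 0.061 to 0.19 under OPDA, 1.09 to 2.60 for the difference of the PPA1 response, -1.37 to -0.34 for that of the OPDA response and 1.02 to 1.51 for the genotype difference over the 3 treatments, which passed without tga2-5-6 control replicate 1 (exact permutation adjusted p 0.0035) or tga2-5-6 PPA1 replicate 3 (0.023). AT5G05600 ran from -0.12 to 0.046 between genotypes under OPDA and from -0.14 to 0.64 for the PPA1 response, and AT3G11180 from -1.25 to 0.75 with PPA1 in tga2-5-6, and between genotypes from -1.06 to 0.93 in control and from -0.39 to 0.40 under OPDA. The counts of risers with PPA1 were 0 to 1 of the jasmonate genes in either genotype, and 1 to 2 of the other dioxygenases in Col-0. The cause of these changes was not tested.

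Replicate numbers did not pair the samples: arrays of the same number in different groups had correlations of their deviations of -0.0539 to 0.0673, and 6 of 18 arrays correlated best with one of their own number. With the replicate block, AT2G38240 in tga2-5-6 against Col-0 under PPA1 kept 2.59 (adjusted p 0.09085 in limma), and its genotype difference of 1.21 over the treatments had an exact sign-change p of 0.0078125, or 0.01562 adjusted. The block changed no other call on the oxidases.

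Over all probe sets, fitting only the arrays compared lowered the calls to 94 against 592 for PPA1 in tga2-5-6, 221 against 546 for PPA1 in Col-0, 718 against 1414 for OPDA in tga2-5-6, and 89 against 344, 11 against 172 and 6 against 117 between genotypes under PPA1, under OPDA and in control. PPA1 response differences numbered 31 with trend and robust moderation against 2, and OPDA response differences 7 with a pseudocount of 16 against 0.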
